A study of Homo sapiens with 8 samples.

Results

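The transcription factors EGR1, FOS, FOSL1, FOSL2, JUN, JUNB, ATF3, MYC, ETV4 and ETV5 were followed as a group of 10 genes, taken by symbol from the 19775 genes named on the array. They are read by 26 of its 54675 probe sets. Each gene was represented by its brightest probe set (mean log2 signal, 8 arrays), with the remaining ones kept as a check. A gene was tested where its scaled signal reached 50 on at least 2 of the 6 adenovirus arrays, which 9 of the 10 factors and 8982 genes in all did. FOS was the factor that did not.

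HaCaT cells, keratinocytes of human epidermis that became immortal in culture and are known to carry mutated p53, gave the RNA, with 1 array for each of 8 groups. In 6 groups the cells were infected with an adenovirus for LacZ (the control), for HRAS G12V, a RAS held in its active state, or for HRAS N116Y, a dominant negative RAS, each left untreated or treated for 24 h with TGF-beta3 at 5 ng/ml. In the remaining 2 groups an siRNA, either a control or one directed at p53, was used with no virus and no TGF-beta3. All groups are thus 1 cell line in serum-containing medium, the control of the RAS vectors is itself an infected culture, and which promoter drives the vectors is not stated in those labels. Groups follow the sample titles and the field on TGF-beta stimulation, since the source label contradicts both on TGF-beta in all 6 adenovirus samples.

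After trimming, the deposited signals averaged close to 100 on each of the 8 arrays. Of 12 listed keratinocyte markers 8 were measured, and 7 of these, among them KRT5 and KRT14, reached a signal of 50 on all 8 arrays. The measured markers of fibroblasts, melanocytes, leukocytes and endothelial cells numbered 6, 5, 5 and 6, and of these only COL3A1 and MITF reached 50 on any array. COL3A1 (type III collagen), the fibroblast marker, had 107.2 and 144.1 in HRAS N116Y cells against 17.8 and 16.1 in LacZ and 10.2 and 4.2 in HRAS G12V cells (log2 change 2.64 ± 0.29 SE for HRAS N116Y against LacZ, adjusted p = 0.00123 in limma's test). COL3A1 reached 50 only on the HRAS N116Y arrays, so it was tested only through the group in which it was high. Its LacZ and HRAS G12V signals were all raised to the floor of 20. The SE and p-value therefore do not measure their spread. The 6 fibroblast markers summed to 28.1 to 170.2 over the adenovirus arrays, and 3 of the 6 stayed below the floor of 20 on every array. The part of COL3A1-expressing cells in the HRAS N116Y results was not tested. Actin signal at the 3' end relative to the 5' end, a sign of RNA quality, was 1.16 to 1.39 on the adenovirus arrays but 3.68 and 4.01 on the siRNA arrays, so the siRNA arrays were set against each other only. HRAS, by 1 probe set, had signals of 315.7 (untreated) and 287.0 (TGF-beta3) in LacZ cells, 108.8 and 86.1 in HRAS G12V cells and 67.1 and 58.1 in HRAS N116Y cells. It was thus highest in the control cells. Whether this probe set lies within the inserts is unknown, so the vectors are not checked by it.

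These genes encode the nuclear end of growth factor signalling. Active RAS works through RAF, MEK and ERK, and ERK phosphorylates ETS factors that sit with SRF on CArG boxes in the promoters of immediate early genes such as FOS and EGR1. JUN and FOS proteins pair through leucine zippers to form AP-1, which binds TGACTCA, and ATF3 joins JUN proteins on closely related sites. FOSL1, ETV4 and ETV5 are induced later and follow sustained ERK activity. MYC drives ribosome production and cell growth, and its repression is a known part of the growth arrest that TGF-beta causes in keratinocytes. TGF-beta receptors act through SMAD proteins, which can bind DNA together with AP-1.

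Promoter windows of 250 bases before to 50 after the RefSeq start (GRCh38.p14) were searched for 6 of the 10 factors. Windows on the chromosome that carries MYC were left out before this count, so MYC was not searched. Those of EGR1, JUN, JUNB and ATF3 are shown because the first 3 rose with TGF-beta3 and ATF3 shares a site with JUN. Capitals mark CArG boxes and the letters TGACTCA, TGACATCA, TGACGTCA and TGACG, searched on both strands, where TGACG is also the first part of TGACGTCA. Positions count from the start as 1, with no 0.
EGR1, chr5:138465229-138465528, plus strand: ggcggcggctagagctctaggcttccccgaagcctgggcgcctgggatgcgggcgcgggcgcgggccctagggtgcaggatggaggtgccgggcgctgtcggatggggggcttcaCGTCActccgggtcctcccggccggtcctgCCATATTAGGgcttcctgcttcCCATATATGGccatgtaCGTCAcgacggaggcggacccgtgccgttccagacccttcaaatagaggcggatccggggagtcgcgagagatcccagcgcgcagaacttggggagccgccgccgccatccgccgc
JUN, chr1:58783998-58784297, minus strand: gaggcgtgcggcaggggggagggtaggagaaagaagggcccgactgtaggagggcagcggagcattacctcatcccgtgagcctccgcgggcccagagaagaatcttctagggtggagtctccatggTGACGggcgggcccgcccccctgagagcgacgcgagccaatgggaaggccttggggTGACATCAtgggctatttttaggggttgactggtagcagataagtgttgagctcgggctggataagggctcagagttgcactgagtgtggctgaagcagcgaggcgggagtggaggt
JUNB, chr19:12791236-12791535, plus strand: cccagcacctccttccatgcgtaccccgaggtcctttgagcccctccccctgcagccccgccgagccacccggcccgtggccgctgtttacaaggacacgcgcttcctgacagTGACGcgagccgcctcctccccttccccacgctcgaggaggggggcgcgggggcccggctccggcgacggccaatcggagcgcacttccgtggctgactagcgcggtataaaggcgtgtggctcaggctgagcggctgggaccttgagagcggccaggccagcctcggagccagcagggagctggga
ATF3, the upstream of its 2 windows, chr1:212565157-212565456, plus strand: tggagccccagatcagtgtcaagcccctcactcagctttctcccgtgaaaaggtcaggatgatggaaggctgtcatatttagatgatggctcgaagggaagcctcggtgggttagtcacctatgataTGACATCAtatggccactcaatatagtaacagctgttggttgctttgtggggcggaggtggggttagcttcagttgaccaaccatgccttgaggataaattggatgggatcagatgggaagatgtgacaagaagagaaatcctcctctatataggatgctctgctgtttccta

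The EGR1 window held 2 CArG boxes, CCATATTAGG from -105 and CCATATATGG from -83, and a CArG box was found in 1.29% of the 35116 promoter windows of the same length. It was the only one of the 6 factors with a CArG box in its window. Sequence further upstream was not searched, so CArG boxes outside the windows, that of FOS included, would be missed. TGACATCA, the AP-1-like site known from the JUN promoter, lay at -67 in JUN and at -123 in the upstream ATF3 window, and 2.61% of all windows held it. TGACTCA lay at 5 in the FOSL2 window alone among the 6 (4.95% of all windows). TGACG was found in EGR1, FOS, FOSL2, JUN and JUNB and in 24.6% of all windows. CAGAC, a SMAD-binding sequence, was found in EGR1, in FOSL2 and in the other ATF3 window, and in 45.3% of all windows. TGACGTCA, CACGTG, CCGGAAGT and GCGGGGGCG were searched too and lay in no window of the 6 factors. Of all windows 1.85%, 7.26%, 4.14% and 5.07% held them, in that order. All of this concerns matches of letters, and binding was not measured.

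**Figure D1:**
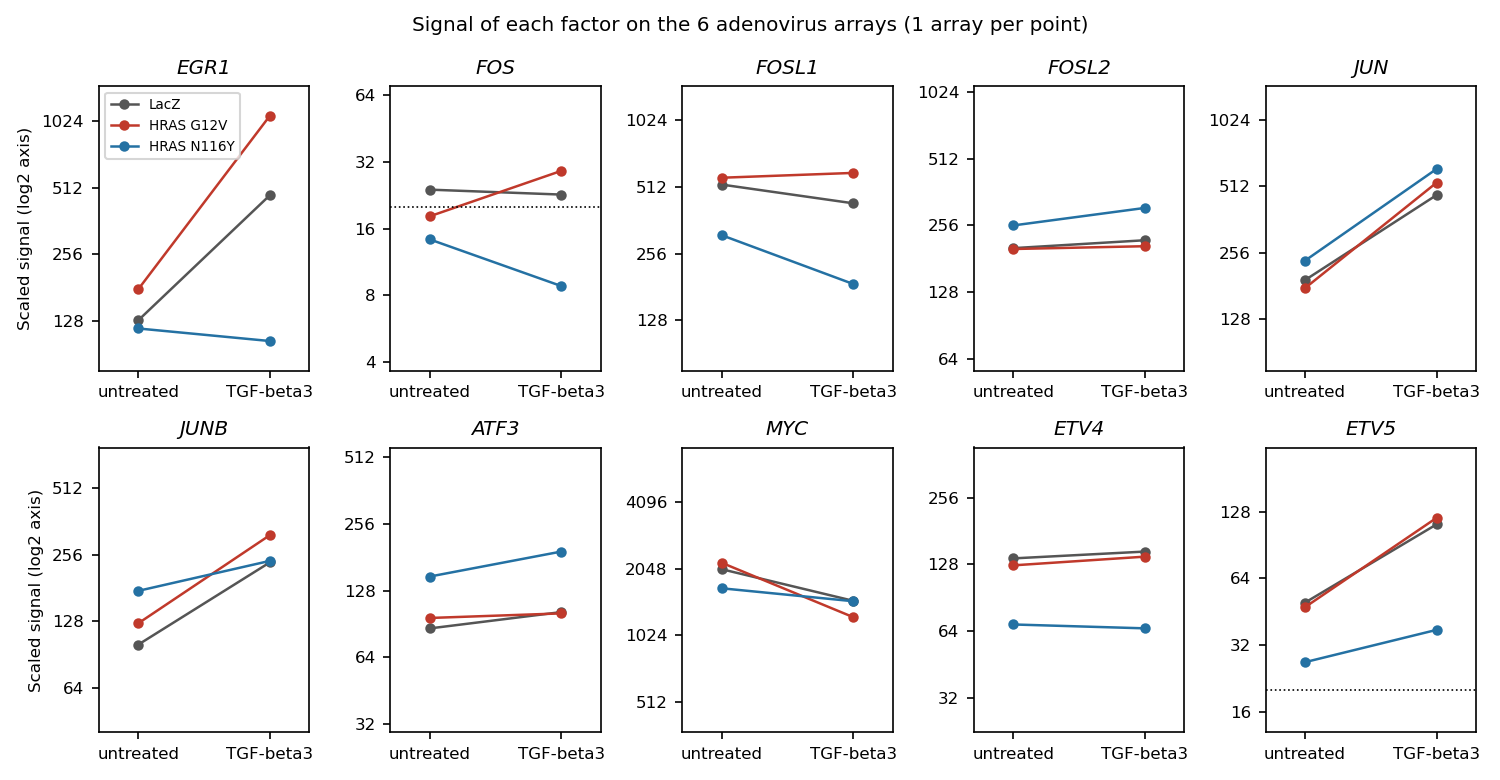
Scaled signal (log2 axis) of each of the 10 factors without and with TGF-beta3, 1 array per point and a line per vector, with the floor of 20 dotted where it falls in view. EGR1 climbs to 472.9 with LacZ and 1080.1 with HRAS G12V but stays at 103.9 with HRAS N116Y, while JUN is higher with TGF-beta3 under all 3 vectors, and FOSL1, ETV4 and ETV5 are lowest with HRAS N116Y.

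The first comparison was TGF-beta3 against no TGF-beta3 over the 3 vectors. EGR1, JUN, JUNB and ETV5 rose and MYC fell. FOSL1, FOSL2, ATF3 and ETV4 did not pass, so the tested factors numbered 4 up and 1 down of 9. Over all 8982 tested genes 16.3% rose and 17.4% fell, by limma's test on an additive model of vector and TGF-beta3 at an adjusted p under 0.05. Of the 8 keratinocyte markers 7 rose as well (median log2 change 0.55). MITF, the 1 melanocyte marker tested, fell (log2 change -0.59 ± 0.17 SE, adjusted p = 0.0232), from 141.9, 93.0 and 141.7 to 74.5, 71.1 and 103.4, while the other 4 measured melanocyte markers were below the floor on all arrays. The part of these markers in the results was not tested. In RNA from whole cultures, fewer cells expressing a gene and less RNA per cell cannot be told apart.

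JUN, the main AP-1 partner, had signals of 192.9, 177.5 and 236.1 without TGF-beta3 and of 467.3, 531.6 and 613.1 with it, in the order LacZ, HRAS G12V, HRAS N116Y. Every treated array lay above every untreated one. The rise averaged 2.66-fold (log2 change 1.41 ± 0.12 SE, adjusted p = 2.07e-05). The probe set used carries the array maker's mark for probes that may also bind other transcripts, and the other 3 probe sets gave averaged log2 changes of 1.29, 1.67 and 0.70.

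JUNB, the AP-1 subunit that often opposes JUN in growth control, had signals of 100.4, 125.3 and 175.7 untreated and of 236.2, 313.5 and 240.0 treated. The groups did not overlap, and JUNB rose (log2 change 1.00 ± 0.18 SE, adjusted p = 0.00161). The untreated HRAS N116Y array stood highest of the untreated arrays, so its own log2 ratio was 0.45, against 1.23 with LacZ and 1.32 with HRAS G12V. Only 1 probe set reads JUNB.

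EGR1, a zinc finger factor and immediate early gene, had signals of 128.7, 177.7 and 118.4 untreated and of 472.9, 1080.1 and 103.9 treated. The treated array with HRAS N116Y lay below all 3 untreated ones, so the groups overlapped. The averaged log2 change was 1.43 ± 0.38 SE (adjusted p = 0.0147), the largest SE of the 9 factors. By vector the log2 ratio came to 1.88 (LacZ), 2.60 (HRAS G12V) and -0.19 (HRAS N116Y). Without either HRAS N116Y array it was 2.24, and without either HRAS G12V array 0.84. The call passed in 4 of 8 alternatives of processing or model. It was lost with the mean of all probe sets (1.03, adjusted p = 0.0858) and with no vector term (adjusted p = 0.174). Both fits without the filter lost it too (adjusted p = 0.503 and 0.095 in limma's test).

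ETV5, an ETS factor of the PEA3 group that lies downstream of ERK and of fibroblast growth factor signals, gave signals of 49.8, 47.5 and 26.8 untreated and 112.4, 120.3 and 37.5 treated. The treated HRAS N116Y array stayed below the untreated arrays of the other vectors, so the groups overlapped. The averaged log2 change was 1.00 ± 0.22 SE (adjusted p = 0.00603), with log2 ratios of 1.17, 1.34 and 0.48. The call was lost with no vector term (adjusted p = 0.149). ETV5 reached 50 on only 2 of the 6 arrays, the treated LacZ and HRAS G12V ones. It was thus tested only through arrays where it was high, which limits this call. Its other 4 probe sets, each below the floor of 20 on 1 to 5 of the 6 arrays, gave 0.41 to 0.08.

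MYC, read by 1 probe set, had signals of 2039.9, 2181.0 and 1672.6 untreated and of 1468.2, 1238.7 and 1461.9 treated. All treated arrays lay below all untreated ones. The fall was 1.41-fold, with a log2 change of -0.49 ± 0.13 SE and an adjusted p of 0.0131. The log2 ratio was -0.82 with HRAS G12V, -0.47 with LacZ and -0.19 with HRAS N116Y. Without either HRAS G12V array the change was -0.33 (adjusted p = 0.177 in limma's test), so the call rests on that vector.

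FOSL1 had an averaged log2 change of -0.31 (adjusted p = 0.129), with ratios of -0.28, 0.07 and -0.73. Without either HRAS G12V array it was -0.51 and passed (adjusted p = 0.0431 and 0.044 in limma's test), and without either HRAS N116Y array it was -0.10. FOSL2, ATF3 and ETV4 had averaged changes of 0.14, 0.23 and 0.06 (adjusted p = 0.42, 0.278 and 0.808 in limma's test). For ATF3 and ETV4 the sign turned with the mean of all probe sets, to -0.04 and -0.15. FOS lay between 8.8 and 29.2 on the 6 adenovirus arrays, below the floor on 3 of them, so no fold is given. A single probe set reads FOS.

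**Figure D2:**
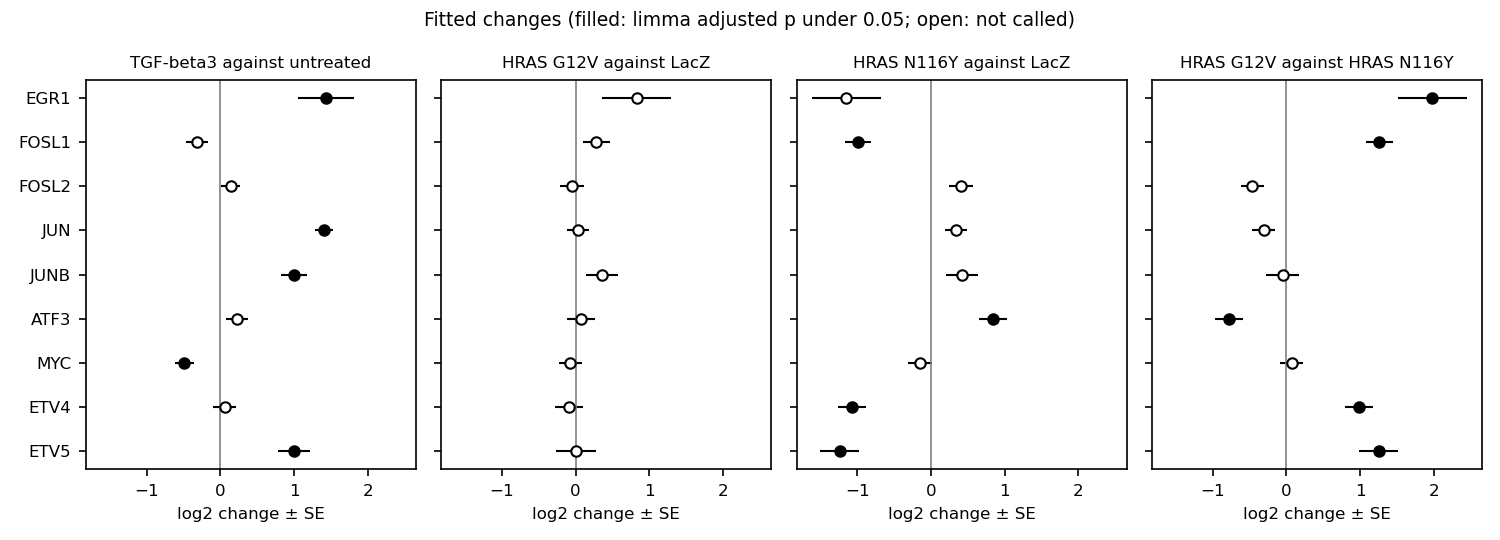
Log2 change ± SE (horizontal axis) of the 9 tested factors in the 4 fitted comparisons, with filled points for an adjusted p under 0.05 in limma's test over 8982 genes. TGF-beta3 has 5 filled points, HRAS G12V against LacZ none, HRAS N116Y against LacZ 4 and HRAS G12V against HRAS N116Y 5.

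No factor passed between active RAS and the control vector. With HRAS G12V against LacZ, 0 of 9 factors passed limma's test, where 0% of all tested genes rose and 0.0445% fell, and 0 of the 9 had an unadjusted p under 0.05 (574 of 8982 genes had). EGR1 had the largest value, a log2 change of 0.83 ± 0.47 SE (adjusted p = 0.833). It came to 0.47 untreated and 1.19 with TGF-beta3, where HRAS G12V had 1080.1 and LacZ 472.9. EGR1's second probe set had 341.9 and 341.4 on these same arrays, so the treated difference was seen by 1 probe set and not by the other. Without the treated HRAS G12V array the value was -0.05. EGR1 passed with only the 4 arrays of these vectors (0.83, adjusted p = 0.0263), and without the treated LacZ array (1.16), the untreated HRAS G12V array (1.71) or either HRAS N116Y array (0.83), all fits with 1 residual degree of freedom.

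FOSL1 had 525.4 and 432.4 with LacZ and 564.1 and 593.1 with HRAS G12V (log2 change 0.28 ± 0.18 SE, adjusted p = 0.852). The arrays of the vectors did not overlap, but the gap was under 2 SE. JUNB had 0.36 ± 0.22 SE (adjusted p = 0.841), and the other 6 factors lay between -0.09 and 0.07.

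Dominant negative RAS was compared with the control vector next. FOSL1, ETV4 and ETV5 fell and ATF3 rose with HRAS N116Y against LacZ, 3 down and 1 up of 9, where 0.846% of all tested genes fell and 1.58% rose. EGR1, FOSL2, JUN, JUNB and MYC did not pass. The p-values measure the spread between these arrays and the interaction of vector with TGF-beta3, as there is 1 array a group.

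FOSL1 (also FRA1), the AP-1 subunit that builds up under lasting ERK activity, had signals of 310.4 and 186.8 with HRAS N116Y against 525.4 and 432.4 with LacZ. Both HRAS N116Y arrays lay below both LacZ arrays. The fall was 1.98-fold, at a log2 change of -0.99 ± 0.18 SE (adjusted p = 0.0198), with log2 ratios of -0.76 untreated and -1.21 with TGF-beta3. With each of the 6 arrays left out in turn, the change ranged from -1.30 to -0.67. The call passed in 5 of 8 alternatives of processing or model. It was lost with the mean of all probe sets (adjusted p = 0.126), where the change stayed at -0.99. The call was also lost in both fits without the filter (adjusted p = 0.69 and 0.164). FOSL1 has 1 probe set.

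ETV4 (also PEA3), an ETS factor that acts on matrix-degrading genes, had 68.4 and 65.7 with HRAS N116Y and 136.0 and 146.0 with LacZ. The vectors were well apart in both states. The log2 change was -1.07 ± 0.19 SE, a fall of 2.10-fold (adjusted p = 0.016), and its second probe set gave -1.18. Without the treated LacZ array the change was -1.04 (adjusted p = 0.0938).

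ETV5 fell by a log2 change of -1.24 ± 0.27 SE, or 2.36-fold (adjusted p = 0.0423), from 49.8 and 112.4 with LacZ to 26.8 and 37.5 with HRAS N116Y. The log2 ratio was -0.89 untreated and -1.58 with TGF-beta3. All 4 of its other probe sets were lower with HRAS N116Y, by -0.11 to -0.84. These signals are near the floor, and the call passed in 1 of 7 alternatives of processing or model. ETV5 entered the test only through the treated LacZ and HRAS G12V arrays, the ones that reached 50. With a floor of 50 the change was -0.58 (adjusted p = 0.384), without the treated LacZ array -1.11 (adjusted p = 0.305) and without the treated HRAS N116Y array -0.85 (adjusted p = 0.108).

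ATF3, a stress-induced factor that can repress AP-1 sites, went the other way. It had 148.2 and 192.2 with HRAS N116Y and 86.4 and 102.4 with LacZ, with no overlap. It rose 1.79-fold (log2 change 0.84 ± 0.19 SE, adjusted p = 0.0456), and the next probe set gave 0.87, while the third was below the floor on all 8 arrays. The adjusted p was just under the threshold. It passed in 2 of 8 alternatives, and was 0.171, 0.249 and 0.1 without the untreated LacZ, the treated LacZ and the treated HRAS N116Y array, with changes of 0.83, 0.86 and 0.73.

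FOSL2 had signals of 255.7 and 306.8 with HRAS N116Y and 201.9 and 219.2 with LacZ. The vectors did not overlap, and all 5 probe sets were higher, by 0.41 to 0.89, but the used one did not pass (log2 change 0.41 ± 0.16 SE, adjusted p = 0.24). JUN and JUNB had 0.34 ± 0.15 SE and 0.42 ± 0.22 SE (adjusted p = 0.317 and 0.42 in limma's test). JUNB's value came from the untreated arrays, 175.7 against 100.4, since the treated ones had 240.0 and 236.2. Without the treated HRAS N116Y array JUNB passed at 0.83 (adjusted p = 0.0214). MYC had -0.15 ± 0.16 SE (adjusted p = 0.738).

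EGR1 had -1.15 ± 0.47 SE with HRAS N116Y against LacZ (adjusted p = 0.278). The 2 states differed: its log2 ratio was -0.12 untreated and -2.19 with TGF-beta3. Without the treated HRAS N116Y array the value was 0.06, and without the untreated one -2.37. It passed without the untreated LacZ array (-1.49), without either HRAS G12V array (-1.15), without the untreated HRAS N116Y array and with only the 4 arrays of these vectors (-1.15), fits with 1 residual degree of freedom.

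The RAS vectors were then set against each other. EGR1, FOSL1, ETV4 and ETV5 were higher with HRAS G12V than with HRAS N116Y and ATF3 was lower, 4 up and 1 down of 9, where 2.58% and 3.8% of all tested genes passed in these directions. This comparison shares its arrays with those above. The log2 differences were 1.98 ± 0.47 SE for EGR1 (adjusted p = 0.0317), 1.26 ± 0.18 SE for FOSL1 (adjusted p = 0.00259), 0.98 ± 0.19 SE for ETV4 (adjusted p = 0.013), 1.25 ± 0.27 SE for ETV5 (adjusted p = 0.0229) and -0.78 ± 0.19 SE for ATF3 (adjusted p = 0.0373). The arrays of the vectors did not overlap in these 5, nor in FOSL2, which did not pass. The share of all tested genes without overlap was not counted, so this adds little to the calls. Without the treated HRAS G12V array the adjusted p was 0.0827 for ETV4, 0.209 for ETV5 and 0.318 for ATF3 in limma's test, with differences of 0.93, 1.00 and -0.65. Without the treated HRAS N116Y array it was 0.0593 for ETV5 (0.87) and 0.08 for ATF3 (-0.67), and without the untreated HRAS G12V array 0.056 for ATF3 (-0.90). EGR1 ranged from 0.77 without the treated HRAS N116Y array to 3.20 without the untreated one, and its call was lost with quantile normalization (adjusted p = 0.0527) and when its probe sets were averaged (1.28, adjusted p = 0.192). Of the alternatives of processing or model, FOSL1 and ETV4 passed in 6 of 8 each, EGR1 and ATF3 in 4 of 8 each and ETV5 in 4 of 7. ETV5 was tested only because its treated LacZ and HRAS G12V arrays reached 50. FOSL2 had -0.46 ± 0.16 SE (adjusted p = 0.113). It passed with the mean of all probe sets (-0.70, adjusted p = 0.0443) and without the untreated HRAS N116Y array (-0.56, adjusted p = 0.0306).

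The TGF-beta3 response was also compared between vectors, with 1 array in each state and so no test. At least 2-fold higher with TGF-beta3 were 4 of 9 factors with a signal of 50 in LacZ cells (4.22% of all such genes), 4 of 9 in HRAS G12V cells (5.53%) and 1 of 8, JUN, in HRAS N116Y cells (4.9%). Between vectors under TGF-beta3, EGR1 alone of 9 was at least 2-fold higher with HRAS G12V than with LacZ (0.25%). EGR1, FOSL1, ETV4 and ETV5 were at least 2-fold lower with HRAS N116Y than with LacZ (1.59%), and the same 4 were at least 2-fold higher with HRAS G12V than with HRAS N116Y (2.51%). EGR1's response was 2.07 lower on the log2 scale with HRAS N116Y than with LacZ (log2 difference -2.07), and 2.79 higher with HRAS G12V than with HRAS N116Y. A difference of at least 1 was seen in 4.3% and 5.22% of the genes with a signal of 50 on 1 of the 4 arrays, and in 1.3% between HRAS G12V and LacZ. EGR1 was the 1 factor of the 10 past it. The difference between HRAS G12V and LacZ was 0.73. On its second probe set EGR1 went from 47.2 to 341.4 with LacZ, from 95.8 to 341.9 with HRAS G12V and from 67.6 to 55.6 with HRAS N116Y, log2 ratios of 2.86, 1.84 and -0.28. Both bright probe sets thus climbed in LacZ and HRAS G12V cells and were slightly lower in HRAS N116Y cells, while the order of the first 2 vectors turned. The third probe set exceeded the floor on 1 of the 6 arrays, the treated HRAS G12V array, at 30.2.

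**Figure D3:**
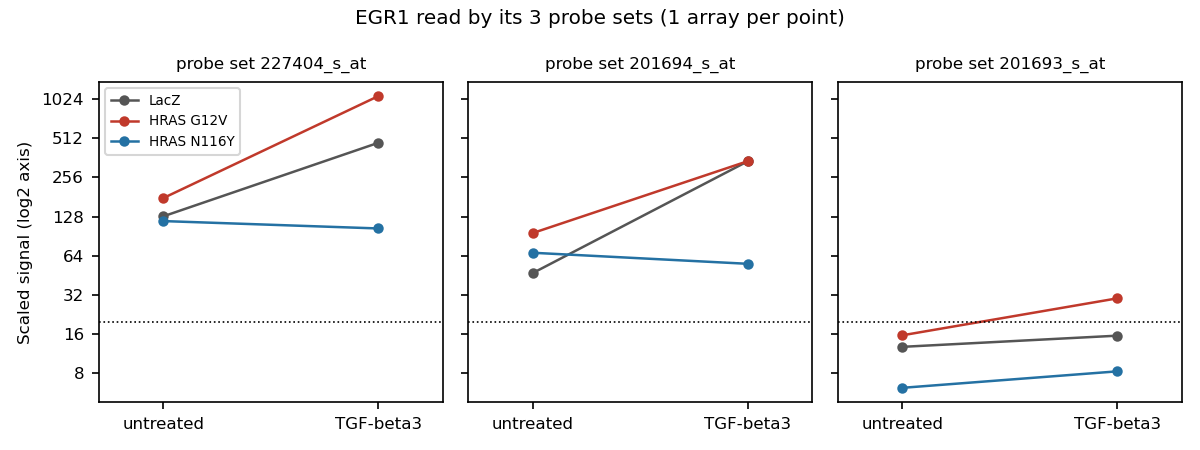
EGR1 scaled signal (log2 axis) by its 3 probe sets without and with TGF-beta3, 1 array per point, a line per vector and the floor of 20 dotted. The LacZ and HRAS G12V lines climb on both bright probe sets and the HRAS N116Y line does not, while the treated LacZ and HRAS G12V arrays differ on the first probe set (472.9 and 1080.1) and not on the second (341.4 and 341.9).

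JUNB and ETV5 had smaller responses with HRAS N116Y too, by -0.78 and -0.69 against LacZ, both short of 1. JUN's response differed from that of LacZ by 0.31 with HRAS G12V and 0.10 with HRAS N116Y on the probe set used. With the mean of all its probe sets JUN's responses were 0.84 (LacZ), 1.25 (HRAS G12V) and 1.71 (HRAS N116Y), so how far the vectors differ depends on the probe set.

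By the root mean square difference of mean-centred log2 signals over the 6 adenovirus arrays, the genes most like each factor were sought among all tested genes. This describes 6 arrays that share 2 factors of design. EGR1 was most like FAM83A (0.23, r = 0.99), HBEGF (0.27) and SMTN (0.34). HBEGF, which encodes a ligand of the EGF receptor, had 156.0 untreated and 486.5 treated in LacZ cells, 154.5 and 766.5 in HRAS G12V cells and 95.5 and 118.1 in HRAS N116Y cells. JUN was most like DDAH2, PTPRK and CYTH1 (0.08 to 0.09), and JUNB like ISG20, MAGED2 and PKP1 (0.13 each). FOSL1 was most like RNF126P1, STEAP1 and SGMS2 (0.10 to 0.17), ETV4 like LINC00520, ZNF114 and CALB2 (0.14 to 0.15), ETV5 like INO80C, PRSS2 and LRRC8C (0.17 to 0.20) and ATF3 like BPHL, UPK3B and OTUD1 (0.06 to 0.09). RNF126P1 is a pseudogene and PRSS2 one of several near-identical trypsinogens, so their probe sets may read other transcripts. MYC and FOSL2 ranged over less than 1 on the log2 scale and were not included.

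The families around these factors were counted from lists chosen with earlier results of these data known, so their counts describe these arrays only. Of 11 other tested AP-1 and related bZIP subunits, 2 rose with TGF-beta3: MAFF, a small MAF protein, by 0.79 and JUND by 0.62 on the log2 scale. That share is near the 16.3% of all tested genes that rose. MAFF fell by 0.81 with HRAS N116Y against LacZ (adjusted p = 0.0141), from 703.9 and 1055.6 to 357.9 and 678.3, and was 1.13 higher with HRAS G12V than with HRAS N116Y. CEBPB was 0.48 higher in that last comparison (adjusted p = 0.0485). Of the EGR relatives and NAB corepressors 2 were tested. EGR3 rose with TGF-beta3 by 1.47 ± 0.35 SE (adjusted p = 0.00884), a value that depends on the floor since its 3 untreated signals were 10.2 to 16.7. Its treated signals were 54.9 (LacZ), 116.9 (HRAS G12V) and 26.7 (HRAS N116Y). NAB1, a corepressor of EGR proteins, fell by 0.78.

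Among ETS factors and SRF partners, 6 of 17 rose and 1 fell with TGF-beta3, where 16.3% and 17.4% of all tested genes did. ETS1, ETS2 and ELK3 rose by 1.17, 1.05 and 1.02, and ELF3, an epithelial ETS factor, fell by 0.80. ELF3 rose with HRAS N116Y against LacZ by 1.00 ± 0.15 SE (adjusted p = 0.0073), from 394.1 and 208.2 to 708.8 and 464.5, a direction opposite to that of ETV4 and ETV5. Against HRAS N116Y it was lower with HRAS G12V (-1.77), while ETS1 was higher (0.70). In the MAX network, the partners and rivals of MYC, 2 of 7 rose with TGF-beta3 (16.3% of all tested genes) and 0 passed in the RAS comparisons. MLXIP rose by 1.18 and MXD1, a MAX partner that opposes MYC, by 1.07. MXD1 had 235.5 to 295.7 untreated and 518.3 to 551.2 treated, with no overlap.

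Of 15 other immediate early genes 8 rose and 0 fell with TGF-beta3, with a median log2 change of 0.40 against -0.01 over all tested genes. Of all tested genes 16.3% rose and 17.4% fell. CCN1 rose by 1.61, SGK1 by 1.53, HBEGF by 1.42 and IER3 by 1.32. With HRAS N116Y against LacZ, PHLDA1 fell by 1.22 and IER3 by 0.98, and HBEGF, PHLDA1 and IER3 were 1.70, 1.44 and 1.23 higher with HRAS G12V than with HRAS N116Y. Of 9 tested kinases of the ERK, JNK and p38 pathways MAPK3 (ERK1) and MAP2K1 (MEK1) rose with TGF-beta3, by 0.62 and 0.48, a share near the 16.3% of all tested genes, and 0 passed in the RAS comparisons. Of 5 ERK feedback genes, DUSP6 (-1.86) and DUSP4 (-1.22) fell with HRAS N116Y against LacZ, where 0.846% of all tested genes fell. The list had a median of -0.78 against 0.02 over all tested genes. DUSP6 rose with TGF-beta3 by 0.95.

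Genes downstream were counted as well. Of 16 tested genes known as AP-1 targets in keratinocytes, 15 rose with TGF-beta3 (median 1.40), among them MMP10, MMP9, SPRR1B and MMP1. With HRAS N116Y against LacZ 4 fell and 1 rose. SPRR1B, MMP1 and MMP9 fell by 1.45, 1.41 and 1.31, while IVL (involucrin), an AP-1 target of the suprabasal layers, rose by 1.83 (adjusted p = 0.00203), from 264.1 and 503.3 to 639.6 and 2625.2. The list thus held both directions. Many of these genes also answer to SMAD proteins or other factors, whose part was not tested. Of 18 genes known to be induced by MYC, 8 fell and 1 rose with TGF-beta3 (median -0.28), where 17.4% and 16.3% of all tested genes did. RRS1, CDK4, PA2G4 and PPAT fell by 0.78, 0.77, 0.68 and 0.62. In the comparisons of RAS vectors with LacZ 0 of the 18 passed, and ODC1, a polyamine enzyme, was 1.01 higher with HRAS G12V than with HRAS N116Y (adjusted p = 0.0275).

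The last comparison was p53 siRNA against control siRNA, 1 array each, with no replicate check and no test. MYC, ETV5, FOSL1 and JUN were at least 2-fold higher with p53 siRNA and JUNB at least 2-fold lower, 4 and 1 of the 7 factors with a signal of 50 on 1 of the arrays. Over the 9062 genes measured in this way 2.35% were at least 2-fold higher and 6.16% lower. MITF was higher with p53 siRNA too (64.4 and 131.2, log2 ratio 1.03), and its part in the results was not tested.

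MYC had signals of 389.5 with control siRNA and 1454.8 with p53 siRNA, 3.73-fold apart (log2 ratio 1.90). ETV5 had 30.2 and 109.5 (log2 ratio 1.86), and 2 of its other 4 probe sets were higher with p53 siRNA too, with 11.6 and 13.8 against 50.8 and 54.9. The other two were below the floor on both arrays. FOSL1 had 55.9 and 194.7 (log2 ratio 1.80). JUN had 274.2 and 555.4 (log2 ratio 1.02), but another of its probe sets had 27.2 and 30.5, so the size of that difference varied between probe sets. Averaged over each gene's probe sets, the log2 ratio was 0.70 for JUN and 0.93 for ETV5, both short of 2-fold. JUNB had 155.2 and 66.1 (log2 ratio -1.23).

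ETV4 had 19.7 and 41.4, with the first signal at the floor and both under 50, and its other probe set had 11.4 and 34.1. FOSL2 had 415.9 and 354.0 and ATF3 213.6 and 176.8 (log2 ratios -0.23 and -0.27). EGR1 had 48.3 and 47.3 on its used probe set and 161.5 and 208.6 on its second. FOS had 33.5 and 16.5. The factors did not share 1 direction: both ETV5 and FOSL1 were higher with p53 siRNA, and JUN and JUNB parted.

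**Figure D4:**
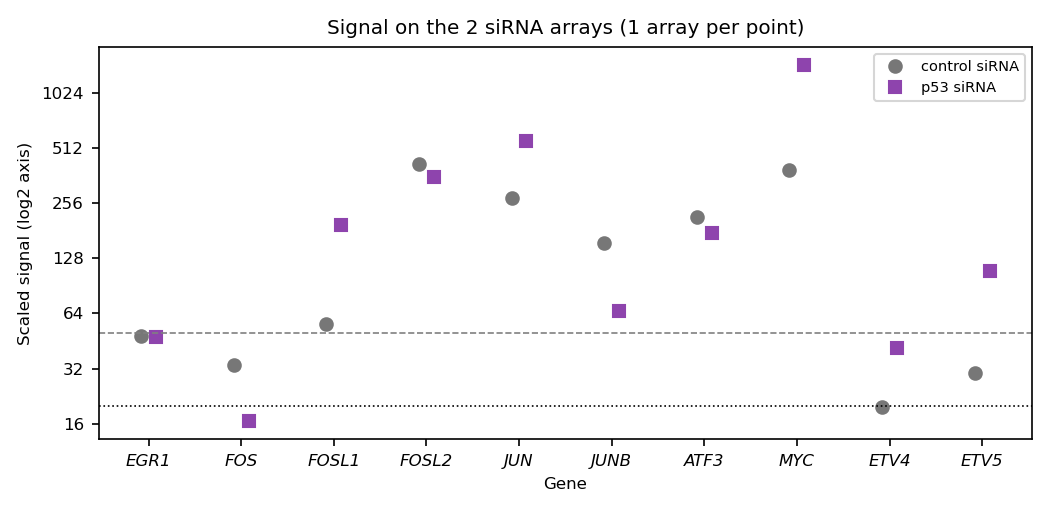
Scaled signal (log2 axis) of the 10 factors with control siRNA (circles) and p53 siRNA (squares), 1 array per point, with the floor of 20 dotted and the signal of 50 dashed. MYC, ETV5, FOSL1 and JUN are higher with p53 siRNA and JUNB is lower. EGR1 is close on both arrays by the probe set drawn (48.3 and 47.3), while its other probe sets, not drawn, were higher with p53 siRNA.

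Of 5 ERK feedback genes 3 were at least 2-fold higher with p53 siRNA and 0 lower (median log2 ratio 1.14 against 0.02 over all genes measured): DUSP4 (116.3 and 456.7), DUSP6 (216.3 and 823.9) and SPRY2 (59.9 and 131.8). Of 18 genes induced by MYC, ODC1, NOP16 and PPAT were higher, by 1.12, 1.13 and 1.02, and 0 lower (median 0.45). Of 16 ETS factors and SRF partners 0 were higher and 3 lower, ETS1, ELF3 and ELF4 with -1.78, -1.67 and -1.23. Of the AP-1 targets 5 of 12 were higher, CXCL8 by 1.85, and 3 lower, IVL by -2.59. JDP2, a bZIP factor that represses AP-1 sites, had 180.1 and 55.2. These genes of the siRNA pair were named for passing 2-fold, after their values were seen. Over all genes measured in this pair 2.35% were at least 2-fold higher and 6.16% lower.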

How the data were processed

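The deposited table gives 1 linear intensity per probe set and array. The authors made it with MAS5 5.0, per the submitters' processing notes, and the values show each array scaled to a trimmed mean near 100. Signals were rescaled to 100, raised to a floor of 20 where lower and log2-transformed, which makes changes of dim genes smaller. Of the probe sets 41097 had 1 gene symbol in the platform annotation, 1801 several and 11777 none here, and 41043 were matched to RefSeq symbols. The model for the 6 adenovirus arrays (limma 3.58.1, R 4.3.3; vector plus TGF-beta3, trended prior, Benjamini-Hochberg over 8982 genes) leaves 2 residual degrees of freedom and a prior of 8.74. Nothing in the labels names separate cultures, so a p-value reflects spread among these arrays alone, and that spread may be technical.

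Single pairs were described by log2 ratios, with 2-fold at a signal of 50 as the mark. The named genes are the factors, HRAS, from each list the 4 called genes that changed most in a comparison, and the 3 genes most like each factor. The factors and lists were chosen with earlier results of these data known. On simulated data of 8982 genes, 200 were changed by 1 on the log2 scale. The fit recovered 97% of them for TGF-beta3, 94.5% for HRAS G12V and 92.5% for HRAS N116Y against LacZ. For the RAS vectors against each other it recovered 93.5%. Of the calls 8.9%, 6.4%, 5.6% and 4.6% were false, in that order. The simulated noise was independent and normal, at the spread limma gave each gene, and no TGF-beta3 response differed between vectors. In the real data 1466 genes rose and 1567 fell with TGF-beta3, so these rates need not hold there. Alternatives were a floor of 50, a pseudocount of 20, no filter or a filter of 100, the mean of all probe sets, quantile normalization, other models and each array left out. The level of the siRNA's target gene is not reported here.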

Additional observations from a re-analysis of the deposited data

Results flagged for a closer look

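EGR1 stood out because its TGF-beta3 responses differed by at least 1 on the log2 scale between vectors and had log2 ratios of opposite sign. The ratio was 1.88 in LacZ cells, 2.60 in HRAS G12V cells and -0.19 in HRAS N116Y cells. The log2 difference was -2.07 for HRAS N116Y against LacZ and 2.79 for HRAS G12V against HRAS N116Y. With 1 array in each state the difference was not tested, and the value of -0.19 is small enough that no fall is claimed. Averaging its probe sets gave EGR1 differences of -1.73 and 1.83.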

How the results depend on the processing

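Limits first: each group is 1 array, FOS is at the floor, ETV5 lies near it, and calls of the RAS comparisons are sensitive to the filter and to single arrays. With 1 array left out 1 residual degree of freedom remains, and the lone array of a state is assumed to vary like the others. In 4 of the 6 such fits limma's prior gave a gene's own spread no weight, so calls gained or kept there are weak. No paired analysis was possible because the labels give no replicate numbers and each group has 1 array; the vector term links the arrays of a vector, and without it 2 factors, not 4, rose with TGF-beta3.

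Of 109 alternative values of called factors, 68 stayed past the threshold, 41 fell short and 0 changed sign; with 1 array left out it was 70, 14 and 0 of 84. Without a filter, 8196 genes held at the floor on all 6 arrays entered the fit, the prior fell to 0.76 degrees of freedom, and the factors that rose and fell numbered 0 and 0 with TGF-beta3, with HRAS N116Y against LacZ and with HRAS G12V against HRAS N116Y. Leaving those genes out, an alternative chosen after seeing the data, gave 0 and 0 again for the last 2 comparisons. With TGF-beta3 it gave 3 rising and 1 falling, with the EGR1 call lost. The calls of the RAS comparisons thus depend on the filter. With the mean of all probe sets 2 factors rose with TGF-beta3, and 0 rose and 1 fell with HRAS N116Y against LacZ. In that setting 2 were higher with HRAS G12V than with HRAS N116Y. ETV5 was not among the 7517 genes tested there, and the prior had 3.44 degrees of freedom. FOSL1, with 1 probe set, kept its change of -0.99 with HRAS N116Y against LacZ but did not pass (adjusted p = 0.126 in limma's test). The rise of ATF3 with HRAS N116Y against LacZ, the single one, became 0 with a floor of 50, with a filter of 100 and with quantile normalization, which also took the factors lower with HRAS G12V than with HRAS N116Y to 0. With only the 4 arrays of the vectors 1 factor (EGR1) rose with HRAS G12V against LacZ.

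With 1 array left out the counts ranged from 0 to 1 rising with HRAS G12V against LacZ, 0 to 1 rising and 1 to 4 falling with HRAS N116Y against LacZ, and 2 to 4 rising and 0 to 2 falling with HRAS G12V against HRAS N116Y. Signs turned only among values that had not passed. With the mean of all probe sets ATF3 and ETV4 had -0.04 and -0.15 with TGF-beta3 and -0.05 and 0.05 with HRAS G12V against LacZ. With 1 array left out, HRAS G12V against LacZ ranged from -0.24 to 0.27 for ETV5, -0.10 to 0.16 for JUN, -0.05 to 0.19 for ATF3, -0.05 to 1.71 for EGR1, -0.01 to 0.57 for FOSL1, -0.13 to 0.02 for FOSL2 and -0.32 to 0.17 for MYC. HRAS N116Y against LacZ ranged from -0.37 to 0.08 for MYC and -2.37 to 0.06 for EGR1, and HRAS G12V against HRAS N116Y from -0.47 to 0.36 for JUNB and -0.17 to 0.31 for MYC.

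Among pairs, the mean of all probe sets gave 2 factors at least 2-fold apart with TGF-beta3 in LacZ cells, 0 for HRAS G12V against LacZ with TGF-beta3, 1 each for HRAS N116Y against LacZ and for HRAS G12V against HRAS N116Y without it, and 3 for the siRNA pair. Quantile normalization gave 1 for HRAS N116Y against LacZ without TGF-beta3. A floor of 50 gave 2 factors whose TGF-beta3 response differed by at least 1, for HRAS N116Y against LacZ and for HRAS G12V against HRAS N116Y.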
